A study of Mus musculus with 6 samples.

Results

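Cux1, Cux2, Pou3f1, Pou3f2, Pou3f3, Mef2c and Ptprk are 7 genes named for their part in upper-layer and callosal neurons of the cerebral cortex. They were taken as a fixed list of names and looked up among the 34289 genes to which the deposited transcripts could be summed. A listed transcript was matched for 6 of the 7 genes, and all 6 passed the filter on low counts that left 16985 genes for testing. Pou3f2 had no matched transcript and is not analysed here. The libraries came from postmitotic neurons of mouse cortex at E14.5, and the labels give no strain, sorting method or promoter. Of the 6 libraries, 3 came from Rp58-/- embryos (mutant) and 3 from Rp58+/+ embryos (control), and no agent or further allele is named. Rp58 is an earlier name of Zbtb18, a zinc finger repressor that cortical neurons need to mature. Whether the libraries of one genotype stem from different embryos is not stated, so the p-values measure the spread between these libraries, which may be technical in part.

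Upper-layer neurons are born late in cortical development, and many of them send axons through the corpus callosum to the other hemisphere. CUX1 and CUX2 are CUT-domain homeobox factors that mark upper-layer neurons and shape their dendrites and spines. The POU factors encoded by Pou3f1, Pou3f2 and Pou3f3 (also called Oct6, Brn2 and Brn1) act in the production and migration of these neurons. MEF2C is a MADS-box factor of neuronal differentiation and synapse formation. PTPRK is a receptor tyrosine phosphatase whose extracellular part binds copies of itself on neighbouring cells.

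Total estimated counts lay between 53044306 and 56472475 in the mutant libraries and between 34645505 and 75892649 in the control libraries. The libraries were of 2 types, told apart by the difference between a long transcript's length and its effective length. That difference was exactly 249 bases in mutant 1, mutant 2 and control 1 (fixed-length libraries) and between 133.7 and 139.2 bases in mutant 3, control 2 and control 3 (estimated-length libraries). The type is a term of the main fit, and values within each type are given, because it raised the common biological coefficient of variation to 0.701 when left out, against 0.186 with it. Zbtb18, the deleted gene, was at 46.7, 45.7 and 538 CPM (counts scaled to a TMM-normalized library size of 1e+06) in mutants 1, 2 and 3, against 1902, 1587 and 1697 CPM in controls 1, 2 and 3. Mutant 3 lay between the other mutants and the controls, so the deleted gene bears out its genotype label only in part. Every effect within the estimated-length libraries rests on this single mutant. The fit without it is mentioned where a call on the 6 genes or on a named gene changes. Of the 8 markers of postmitotic cortical neurons, all were tested, and their summed level was 4872 to 7720 CPM in mutants and 6102 to 9442 CPM in controls. Of them 4 fell and 1 rose, where 14.9% of all tested genes were called in either direction, and none was called without the library type term (2.36% of all genes). In these bulk libraries, fewer cells of a type and less RNA per cell cannot be told apart.

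The POU genes have no introns, and their coding regions are alike enough that reads could be divided between them, so the longest exact stretches that their annotated transcripts share are shown here. Capitals mark the shared stretch, in sequence of GRCm38 from the GENCODE vM21 transcripts, on the strand of each gene.
Pou3f1 at chr4:124658587-124658655 (+): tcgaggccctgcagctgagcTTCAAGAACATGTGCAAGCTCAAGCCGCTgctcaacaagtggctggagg
Pou3f3 at chr1:42698224-42698292 (+): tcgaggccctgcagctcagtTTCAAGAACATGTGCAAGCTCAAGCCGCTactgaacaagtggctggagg
Pou3f1 at chr4:124658569-124658646 (+): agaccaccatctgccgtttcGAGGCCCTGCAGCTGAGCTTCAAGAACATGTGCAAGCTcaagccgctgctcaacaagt
Pou3f2 at chr4:22487135-22487212 (-): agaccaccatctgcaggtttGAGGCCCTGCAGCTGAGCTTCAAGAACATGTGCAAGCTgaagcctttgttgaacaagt
Pou3f1 and Pou3f3 shared a run of 29 bases in their coding sequence, and no stretch of 31 bases was common to both. Pou3f1 and Pou3f2 shared a run of 38 bases, which holds 8 of the 3819 stretches of 31 bases in Pou3f1 (0.209%). The annotated Pou3f1 and Pou3f3 transcripts thus have no 31-base stretch, the usual unit that kallisto matches, in common. The deposited models of both are shorter than the annotated ones, at 3010 of 3849 bases for Pou3f1 and 3062 of 7409 bases for Pou3f3.

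In the mutant neurons, Cux2, Pou3f1 and Mef2c fell, Ptprk rose, and Cux1 and Pou3f3 were higher in every mutant library without passing the test. All 6 genes had mutant libraries that lay wholly above or wholly below the controls, as did 15.4% of all tested genes. In the fit with library type, 3 of the 6 genes fell and 1 rose at an adjusted p under 0.05 (quasi-likelihood test of edgeR, Benjamini-Hochberg adjustment over all tested genes). The background in that fit was 14.9% of genes called, 7.01% lower and 7.92% higher in mutants. Without the library type term 2.36% of genes were called (1.59% higher and 0.765% lower), and of the 6 genes Mef2c alone. Within the fixed-length libraries 9.46% of genes were called, among them Cux2 and Mef2c. Within the estimated-length libraries 7.92% were called, among them Pou3f3, Mef2c and Ptprk. The 6 genes went in both directions, and their median log2 fold change of -0.37 falls between Cux1 (0.36) and Cux2 (-1.10). The median over all tested genes was -0.00081.

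**Figure D1:**
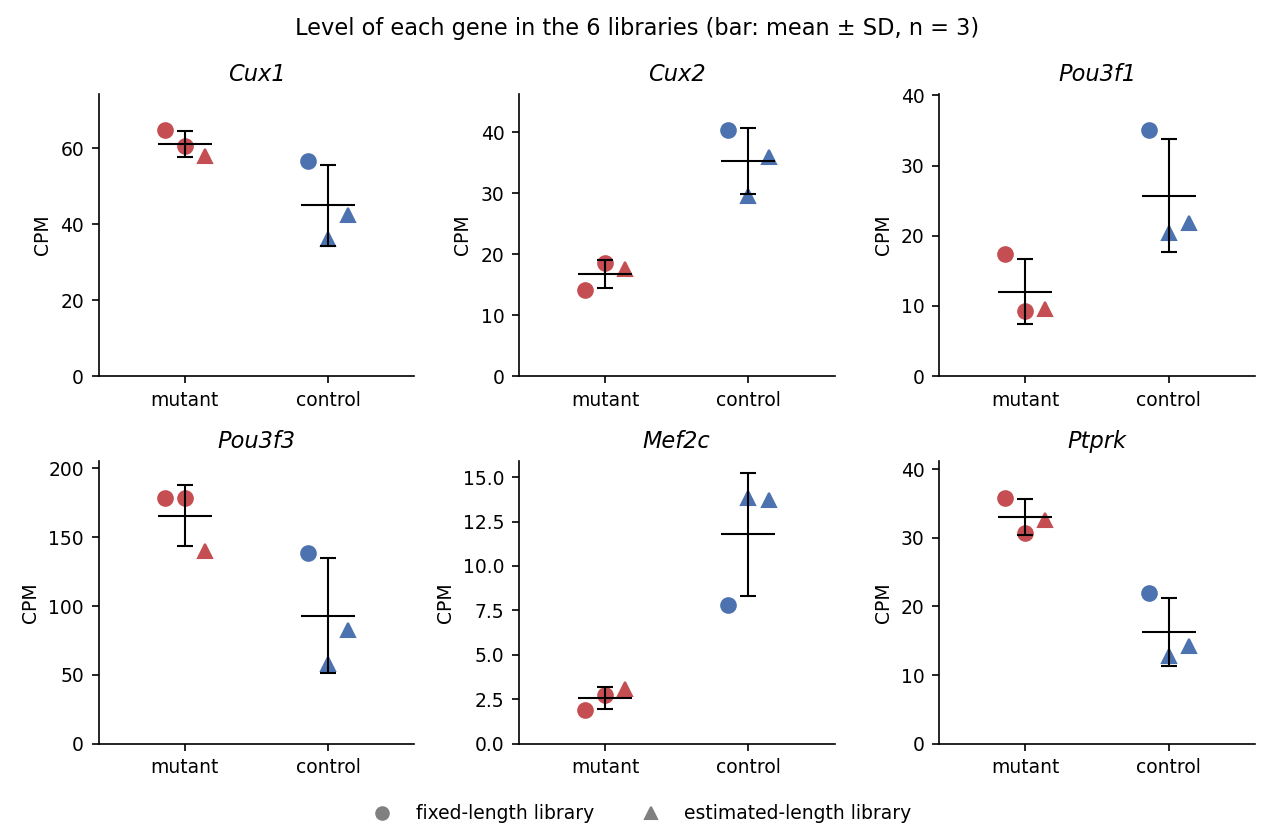
Level in CPM (linear axes from 0) of the 6 measured genes in mutant and control libraries. Points are libraries, circles are fixed-length and triangles estimated-length, and bars give mean ± SD of 3 libraries. Mutant points lie below all control points for Cux2, Pou3f1 and Mef2c and above them for Cux1, Pou3f3 and Ptprk.

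Cux2, the more restricted of the CUX factors in upper layers, fell in the mutants. It was at 14.2, 18.6 and 17.6 CPM in mutants 1, 2 and 3, against 40.3, 29.5 and 35.9 CPM in controls 1, 2 and 3. Every mutant lay below every control, and the gap between the groups was wider than the spread within either. The means were 16.8 ± 2.32 CPM in mutants and 35.2 ± 5.44 CPM in controls (SD, n = 3 each). The log2 fold change was -1.10 ± 0.16 (SE; adjusted p = 0.00507), a 2.14-fold lower level in mutants. It was -1.30 within the fixed-length libraries and -0.89 within the estimated-length libraries, and these did not differ beyond their error (difference 0.40 ± 0.29, adjusted p = 0.894). Without the library type term the adjusted p was 0.0647, and without control 1 it was 0.0855. The gene lies on chromosome 5 (121856366 to 122050102 of GRCm38, minus strand).

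Cux1, expressed more widely than Cux2, went the other way and was not called. It was at 64.7, 60.5 and 58.1 CPM in mutants 1, 2 and 3, against 56.8, 36.0 and 42.3 CPM in controls 1, 2 and 3. Control 1 came close to the lowest mutant, while both other controls lay well below. The log2 fold change was 0.36 ± 0.12 (SE; adjusted p = 0.104). It was 0.14 within the fixed-length libraries and 0.57 within the estimated-length ones (adjusted p = 0.593 and 0.0695). The ratio of Cux1 to Cux2 in TPM, which corrects for length, was 11.0, 8.68 and 2.52 in mutants 1, 2 and 3, against 3.61, 1.06 and 0.966 in controls 1, 2 and 3. Within each library type every mutant had the higher ratio. Both sums include models that do not encode the homeodomain, which are set apart below.

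The Cux1 locus (chromosome 5, 136248135 to 136567490, minus strand) also encodes CASP, a Golgi protein that shares the first exons of CUX1 and lacks the CUT repeats and the homeodomain. Of the 14 listed Cux1 models, 5 encode a homeodomain by its recognition helix, and they encode between 1388 and 1517 residues. The other 9 do not, and the leading models among them, Cux1-207 and Cux1-211, encode 678 and 676 residues. The homeodomain-coding models held 4.67%, 4.26% and 25.4% of Cux1 counts in mutants 1, 2 and 3, against 4.86%, 21.1% and 29.7% in controls 1, 2 and 3. The estimated sum for the gene is thus mostly a sum of models without the homeodomain in all 6 libraries, and the share follows the library type rather than the genotype. The deposited homeodomain-coding models Cux1-204 and Cux1-201 are shorter than annotated, at 6168 of 10945 and 5083 of 12862 bases. Those of Cux1-207 and Cux1-211 have 2851 and 2830 bases, against 2821 and 2831 annotated. Reads from sequence missing in a deposited model cannot be counted for it, and the effect on these shares was not tested. When each class entered the fit as a gene of its own, a step added after the data were seen, the homeodomain-coding models had 3.03, 2.58 and 14.7 CPM in mutants 1, 2 and 3, against 2.77, 7.61 and 12.6 CPM in controls 1, 2 and 3. These values overlap between genotypes, and the log2 fold change was 0.30 ± 0.25 (SE; adjusted p = 0.473). The models without it had a log2 fold change of 0.36 ± 0.11 (adjusted p = 0.0775). In the annotated sequences, 43.8% of the 31-base stretches of Cux1-211 also occur in the homeodomain-coding model Cux1-204. Reads from stretches that the deposited models share are divided between the classes by estimate.

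**Figure D2:**
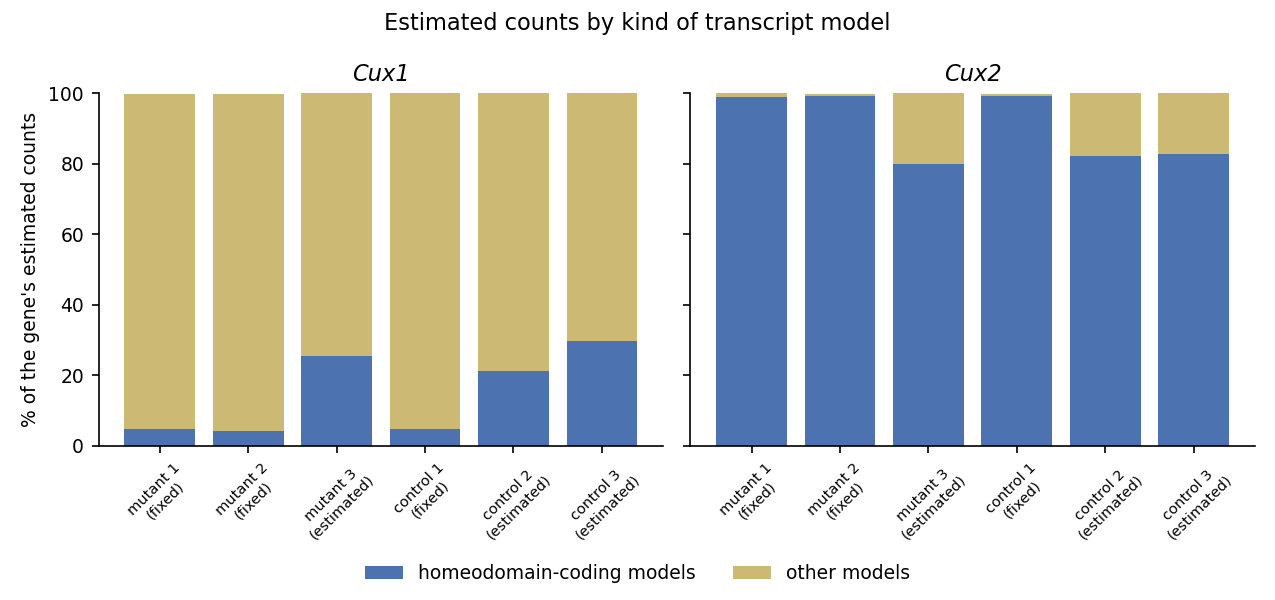
Percent of the estimated counts of Cux1 (left) and Cux2 (right) held by transcript models that encode the homeodomain and by all other models, in each library with its type in brackets. Homeodomain-coding models hold 4.26% to 29.7% of Cux1 counts and 80.0% to 99.4% of Cux2 counts.

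In Cux2, by contrast, the homeodomain-coding models held most counts, at 99.0%, 99.4% and 80.0% in mutants 1, 2 and 3, against 99.4%, 82.3% and 82.8% in controls 1, 2 and 3. Taken as a gene of their own, they fell with a log2 fold change of -1.12 ± 0.16 (SE; adjusted p = 0.00459). Since these models hold most counts of the gene, this fit largely repeats that on Cux2 and is no separate support. Their call held with the library type term and in 5 of 6 fits that leave out a library. It was lost without control 1 (adjusted p = 0.0811) and without the term (0.150). Cux2-201, named after its values were seen, had 0 estimated counts in all 3 mutants, against 37.5, 138.7 and 57.2 in controls 1, 2 and 3. The transcript was not called (adjusted p = 0.0714). As annotated, it shares 95.0% of its 31-base stretches with Cux2-202, so its counts, zeros included, are a division of shared reads by estimate. In TPM, the homeodomain-coding models of Cux1 summed to 0.752, 0.700 and 0.777 in mutants 1, 2 and 3. In controls 1, 2 and 3 they summed to 0.642, 0.448 and 0.648. Those of Cux2 summed to 2.75, 4.12 and 0.671 in the mutants and to 7.52, 1.34 and 1.48 in the controls. For these models Cux2 was thus above Cux1 in every library but mutant 3.

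Pou3f1, the POU factor also known as Oct6, fell. It was at 17.3, 9.28 and 9.56 CPM in mutants 1, 2 and 3, against 35.0, 20.4 and 21.7 CPM in controls 1, 2 and 3. The groups did not overlap, although mutant 1 came near the estimated-length controls. Set within the fixed-length libraries, mutants 1 and 2 kept 49.5% and 26.5% of control 1, and mutant 3 kept 45.4% of the mean of controls 2 and 3. The log2 fold change was -1.27 ± 0.24 (SE; adjusted p = 0.0145). Without the library type term the adjusted p was 0.326, and without control 1 or mutant 3 it was 0.172 or 0.0626. The gene is at 124656807 to 124660655 of chromosome 4 (plus strand).

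Pou3f3, the most abundant of the 6 genes per length in every library, was higher in mutants without passing the test. It was at 179, 178 and 140.0 CPM in mutants 1, 2 and 3, against 138.9, 57.6 and 82.7 CPM in controls 1, 2 and 3. Mutant 3 and control 1 were nearly level, and these libraries are of different types. Compared within types, mutants 1 and 2 were at 128.6% and 128.3% of control 1, and mutant 3 was at 199.5% of the mean of controls 2 and 3. The log2 fold change was 0.68 ± 0.18 (SE; adjusted p = 0.0552). Within the estimated-length libraries it passed at 0.997 ± 0.21 (adjusted p = 0.0455), and within the fixed-length libraries it was 0.36 ± 0.22 (adjusted p = 0.372). The difference between those effects was 0.64 ± 0.30 and did not pass (adjusted p = 0.771). The adjusted p was 0.551 without the library type term and 0.0494 without control 1. The gene is at 42695768 to 42703176 of chromosome 1 (plus strand), and AC122898.1, an annotated sense-overlapping transcript, shares part of that span.

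The ratio of Pou3f3 to Pou3f1 in TPM was 10.1, 18.9 and 14.4 in mutants 1, 2 and 3, against 3.89, 2.77 and 3.73 in controls 1, 2 and 3. Every mutant ratio lay above every control ratio, in both library types. The ratio was not tested, and Pou3f3 was not called.

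Mef2c showed the largest change of the 6 genes in every fit shown in the plot of genotype effects. It was at 1.91, 2.71 and 3.10 CPM in mutants 1, 2 and 3, against 7.79, 13.8 and 13.7 CPM in controls 1, 2 and 3. The highest mutant lay below the lowest control by more than the spread among the mutants. The means were 2.57 ± 0.61 CPM in mutants and 11.8 ± 3.45 CPM in controls (SD, n = 3 each). The log2 fold change was -1.94 ± 0.21 (SE; adjusted p = 0.00147), a 3.83-fold lower level in mutants. On log2(TPM + 0.5) with limma the difference was -0.96 (adjusted p = 0.0154), a scale on which the added 0.5 exceeds the TPM of Mef2c in mutants 1 and 3. Mutants 1 and 2 kept 24.5% and 34.8% of control 1, and mutant 3 kept 22.5% of the mean of controls 2 and 3. The call held without the library type term (adjusted p = 0.0386), within the fixed-length (0.0137) and the estimated-length libraries (0.0104), and in each of the 6 fits that left out a library. These counts come from 2 of the 31 transcripts annotated for the gene, and Mef2c-201 (11 exons, 464 residues) held nearly all of them. The locus is 83504034 to 83667080 of chromosome 13 (plus strand).

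Mef2c is also a gene of microglia, endothelium and some GABAergic neurons. The summed level of 6 microglia markers was 0.849 to 2.41 CPM in mutants and 1.49 to 1.99 CPM in controls. For 6 endothelial markers it was 1.01 to 3.83 CPM in mutants and 0.382 to 1.33 CPM in controls. For 8 GABAergic interneuron markers it was 2.53 to 2.94 CPM in mutants and 0.636 to 2.39 CPM in controls. No marker of these lists was at 0 in every library, 2 of 5 tested interneuron markers and 1 of 2 tested endothelial markers rose, and none fell, where 7.92% of all tested genes rose. The endothelial call, on Kdr, was lost without mutant 3 (adjusted p = 0.0618). Each interneuron call, on Slc32a1 and Dlx5, was lost in 3 of 6 fits that left out a library. For Slc32a1 the fit without mutant 3 was among them. Neither tested microglia marker was called, and without the library type term no marker of the 3 lists was. Their part in the level of Mef2c was not tested.

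Ptprk, the adhesion-type phosphatase, rose. It was at 35.8, 30.7 and 32.6 CPM in mutants 1, 2 and 3, against 21.9, 12.7 and 14.2 CPM in controls 1, 2 and 3. The mutants lay close together and clear of the highest control. The log2 fold change was 0.94 ± 0.16 (SE; adjusted p = 0.0112), a 1.92-fold higher level in mutants. It was 0.60 ± 0.16 within the fixed-length libraries and 1.27 ± 0.15 within the estimated-length ones (adjusted p = 0.0742 and 0.00545). The difference of 0.68 ± 0.21 between those effects did not pass (adjusted p = 0.541). The call was lost without the library type term (0.150), without control 3 (0.0503) and without mutant 3 (0.0823). Only 1 of the 11 annotated transcripts was listed, with 32 exons and 1457 residues, from a locus at 28074820 to 28597397 of chromosome 10 (plus strand).

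**Figure D3:**
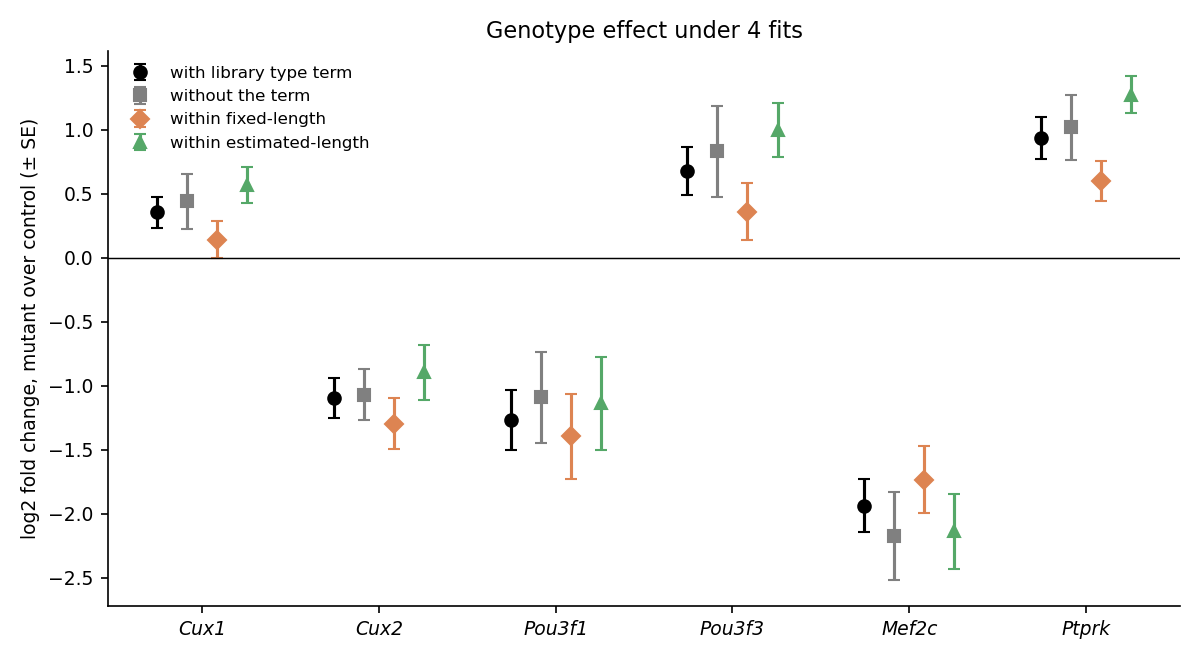
Log2 fold change of mutant over control (points, ± SE) for the 6 genes in the fit with the library type term, the fit without it, and within the fixed-length and estimated-length libraries. All 4 values of each gene lie on the same side of 0, from 0.14 to 1.27 for Cux1, Pou3f3 and Ptprk and from -2.18 to -0.89 for Cux2, Pou3f1 and Mef2c.

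None of the 6 genes showed a difference of genotype effect between library types that passed over all genes, where 0.153% of genes did. The fitted difference between types, estimated-length over fixed-length, was 0.62 (log2) for Mef2c and between -0.67 and -0.10 for the other 5 genes. At the level of single transcripts, 29 transcripts of these genes were listed and 19 were tested, and 1 of the 19 was called, against 1.4% of all tested transcripts (0.91% higher and 0.49% lower in mutants). It was Mef2c-201, which fell by 1.90 on the log2 scale (adjusted p = 0.0396). That transcript call was lost in each fit that left out a library (adjusted p between 0.0735 and 0.212), while the call on the gene held in all of them.

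Markers of intermediate progenitors, which give rise to many upper-layer neurons, were higher in the same mutants. Of 6 such markers 5 rose and none fell, where 7.92% of all tested genes rose, with a summed level of 458.5 to 703 CPM in mutants and 196 to 310.0 CPM in controls. Eomes was at 117 ± 53.8 CPM in mutants and 24.9 ± 22.3 CPM in controls (SD, n = 3 each; adjusted p = 0.00485, and 0.308 without the library type term), and its product is the factor TBR2 of these progenitors. Of 6 markers of cycling cells 4 rose, with a summed level of 20.8 to 29.9 CPM in mutants and 12.2 to 14.8 CPM in controls. All 4 calls (Mki67, Ccnb1, Top2a and Cenpf) were lost without mutant 3, with adjusted p between 0.0507 and 0.308. The last 3 were also lost without each control. Of 8 radial glia markers 3 rose and 3 fell, where 7.92% of all tested genes rose and 7.01% fell. Their summed level was 100.4 to 211 CPM in mutants and 106.7 to 237 CPM in controls. Without the library type term, 1 intermediate progenitor marker and 0 cycling cell markers rose (1.59% of all genes). In that fit 3 radial glia markers rose, Hes1 and Pax6 among them, and 1 fell, Slc1a3 (0.765% of all genes fell). The calls on Hes1, Pax6 and Slc1a3 in the main fit were kept in all 6 fits that left out a library. Pou3f3, Cux1 and Cux2 are also transcribed in cortical progenitors, and the part of these cells in the values above was not tested.

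Per length, the order of the 6 genes below the top varied between libraries, also within a genotype. Pou3f3 led in all 6 libraries, with 85.6, 98.0 and 14.7 TPM in mutants 1, 2 and 3, against 63.2, 6.75 and 8.43 TPM in controls 1, 2 and 3. Cux1 followed in every mutant and in controls 1 and 2, and in control 3 Cux2 (4.79 TPM) and Cux1 (4.63 TPM) were nearly level. Cux2 and Pou3f1 were both above Ptprk in every control library, and Ptprk was above Pou3f1 in mutants 2 and 3 and nearly level with it in mutant 1 (8.15 and 8.47 TPM). Pou3f1 was above Cux2 in every fixed-length library and below it in every estimated-length one. Mef2c was the lowest gene in every mutant and in controls 1 and 3, and in control 2 Ptprk was lower (0.720 TPM). The level of Mef2c was 0.424, 0.691 and 0.154 TPM in mutants 1, 2 and 3, against 1.64, 0.765 and 0.660 TPM in controls 1, 2 and 3. TPM levels were compared only within a library, and why their level differs between types was not tested. Mitochondrially encoded genes held 16.4% to 17.5% of counts in the estimated-length libraries and 3.58% to 5.15% in the fixed-length ones.

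Among relatives of these genes, 3 of 8 tested other POU genes rose and none fell, where 7.92% of all tested genes rose. Without the library type term 2 of them rose, against 1.59% of all genes. Pou3f4, the remaining gene of the same POU class, was at 12.9 ± 2.31 CPM in mutants and 1.55 ± 0.57 CPM in controls (SD, n = 3 each; log2 fold change 3.29 ± 0.20, adjusted p = 0.000149). Pou4f1, a factor of sensory neurons, was at 3.48 ± 0.52 CPM in mutants and 0.562 ± 0.081 CPM in controls (adjusted p = 0.00113). Pou2f1, a widely expressed factor, was called (adjusted p = 0.0227) although its groups overlapped, and the call was lost in 4 of 6 fits that left out a library.

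Among 4 other CUT-domain genes 2 rose, where 7.92% of all tested genes rose. Without the library type term 0 of them rose, against 1.59% of all genes. Satb1, a chromatin organizer, was at 80.0 ± 6.31 CPM in mutants and 36.3 ± 6.75 CPM in controls (SD, n = 3 each; adjusted p = 0.00138, and 0.0523 without the library type term). Onecut1 reached 1.19 ± 0.70 CPM in mutants, against 0.0614 ± 0.0532 CPM in controls (adjusted p = 0.00649, and 0.0574 without mutant 3). Mef2a, the closest relative of Mef2c to be called, rose where Mef2c fell, at 94.1 ± 17.1 CPM in mutants and 59.2 ± 12.6 CPM in controls (adjusted p = 0.00248, and 0.417 without the term). Among the receptor phosphatases of the class of Ptprk, Ptpru rose, at 61.4 ± 13.8 CPM in mutants and 18.3 ± 3.86 CPM in controls (adjusted p = 0.00252). Ptprt fell, at 1.52 ± 1.10 CPM in mutants and 5.84 ± 1.09 CPM in controls (adjusted p = 0.0285), a call lost in 4 of 6 fits that left out a library.

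A wider list of 26 other upper-layer and callosal genes held members called in both directions. Of its 25 tested members 9 rose, 7 fell and 9 were not called, against 14.9% of all genes called in either direction. Their median log2 fold change was -0.24. Without the library type term 2 rose and 3 fell, where 1.59% of all genes rose and 0.765% fell. Kitl, the ligand of the receptor KIT, was at 154 ± 25.5 CPM in mutants and 16.3 ± 4.67 CPM in controls (SD, n = 3 each; log2 fold change 3.12 ± 0.18, adjusted p = 0.000125). Chn2, a Rac-inhibiting signalling protein, was at 131 ± 2.71 CPM in mutants and 26.1 ± 1.30 CPM in controls (adjusted p = 2.38e-05). Nptx1, a secreted pentraxin of synapses, fell to 9.89 ± 0.043 CPM in mutants, against 40.2 ± 2.89 CPM in controls (adjusted p = 5.88e-05). Epha3, an ephrin receptor, fell to 133 ± 56.9 CPM in mutants, against 327 ± 109 CPM in controls (adjusted p = 0.000544, and 0.307 without the term). Each of these 4 calls was kept in all 6 fits that left out a library. For comparison, the list of corticofugal and deep-layer genes had 8 of 14 tested members that fell and 1 that rose, with a median log2 fold change of -0.65. In that fit 7.01% of all tested genes fell and 7.92% rose. Without the term 4 of them fell and 0 rose, against 0.765% and 1.59% of all genes.

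**Figure D4:**
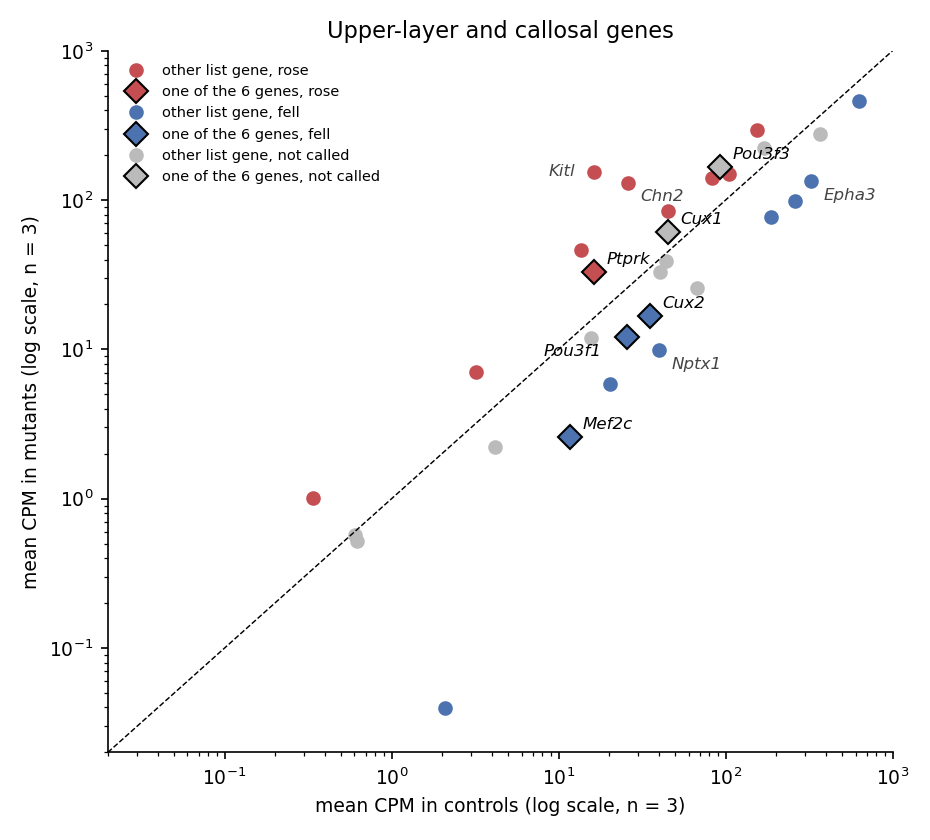
Mean CPM in mutants (vertical) against mean CPM in controls (horizontal), on log axes, for the 6 genes (diamonds, labelled) and 25 other upper-layer and callosal genes (circles). Colours give the call in the fit with the library type term, and the dashed line marks equal levels. Of the circles, 9 rose and lie above the line and 7 fell and lie below it.

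Genes that followed the same pattern over the 6 libraries were sought by Pearson's r of log2 CPM after the library type effect was taken off. With 6 points such values run high, and between 30 (Cux1) and 995 (Pou3f1) of 9910 protein-coding genes had r above 0.95 with a given member. Nearest to Mef2c were Arpp21 and Ston1 (r = 0.9997 and 0.999), with Arpp21 at a mean of 11.3 CPM in mutants and 91.0 CPM in controls. Nearest to Cux2 were Gucy1a2 and Flrt3, nearest to Pou3f1 Polr3k and Orc5, and nearest to Ptprk Dusp14 and Mex3d. Zfx was the nearest gene to both Cux1 (r = 0.996) and Pou3f3 (r = 0.997), followed by Zfp715 for Cux1 and Tfe3 for Pou3f3. Pearson's r does not measure the size of a change. Zfx was at a mean of 36.2 CPM in mutants and 38.6 CPM in controls, with a log2 fold change of 0.092 in the main fit. Zfx, Zfp715, Tfe3, Polr3k, Orc5 and Gucy1a2 were not called in that fit. Among the members themselves, r was 0.986 between Cux1 and Pou3f3 and 0.953 between Cux2 and Mef2c. These values describe 6 libraries that share a genotype contrast and carry no test.

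RP58 is known to bind a site with the core ACATCTG, which contains the E-box CATCTG. Promoters (250 bases before to 50 after a start) from RefSeq on GRCm38.p6 were listed for 6 of the 7 genes, 9 promoters in all, and Pou3f1 had no entry. On either strand, ACATCTG occurred in none of the 9 promoters, against 4.43% of 32851 promoters. The shorter CATCTG occurred in 2 of the 9, against 17.2% of all promoters. They lie before alternative starts of Cux2 and Mef2c, and the 250 bases before those starts are shown with the match in capitals.
Cux2, chr5:122047826-122048075 (-): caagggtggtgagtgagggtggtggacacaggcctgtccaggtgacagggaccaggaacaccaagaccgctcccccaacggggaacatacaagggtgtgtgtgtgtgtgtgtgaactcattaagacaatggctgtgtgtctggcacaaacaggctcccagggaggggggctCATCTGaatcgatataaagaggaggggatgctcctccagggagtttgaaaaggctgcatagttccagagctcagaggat
Mef2c, chr13:83573357-83573606 (+): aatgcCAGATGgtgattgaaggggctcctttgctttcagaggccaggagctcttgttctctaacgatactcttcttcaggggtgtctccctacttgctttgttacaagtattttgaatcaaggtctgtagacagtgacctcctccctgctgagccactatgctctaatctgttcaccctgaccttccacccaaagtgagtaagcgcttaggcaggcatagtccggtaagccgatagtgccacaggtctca
The match starts 79 bases before the start in Cux2 and 245 bases before it in Mef2c, where it reads CAGATG on the strand of the gene. A match describes the letters of this window and does not show a bound site.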

How the data were processed

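RNA was sequenced from 3 mutant (Rp58-/-) and 3 control (Rp58+/+) libraries, made with a stranded total RNA kit per the labels. FastQC, kallisto and mm9 are listed in the submitters' processing notes without versions, and kallisto's settings are not given in the sources used here. Per the file headers, each of 97251 transcripts had a length, an effective length, an estimated count and a TPM value. The estimated counts were deposited by the authors without scaling, and the deposited TPM values are scaled by effective length and total.

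Of the transcripts, 84637 (87.0%) matched GENCODE vM21, on GRCm38, and unmatched ones took 6.85% to 8.58% of counts. Some deposited transcript lengths differ from that annotation. Counts were summed to genes and rounded. Genotypes were compared with edgeR 4.0.16 in R 4.3.3 (quasi-likelihood test, TMM, filterByExpr, prior count 2, Benjamini-Hochberg adjustment over all tested genes, called under 0.05) with library type as a term. SE is the log2 fold change divided by the square root of F. Effects within a type used a spread pooled over both types, since each type holds a genotype with 1 library. Fits were tested on simulated data. Alternatives were no type term, RLE factors, TMM from nuclear protein-coding genes, no filter, an effective length offset, DESeq2 1.42.0, limma 3.58.1 on log2(TPM + 0.5), and leaving out each library.

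The genes, lists, tests and the choice of the type term were made with earlier results of these data known. Named were, besides the 7 genes and Zbtb18, up to 4 called genes with the smallest p from a list, the 2 nearest in pattern with a mean of at least 5 CPM, and transcripts with at least 10% of a gene's counts. Of the lists, those of striatal, Cajal-Retzius and mural or meningeal markers had 1, 1 and 0 members that rose and 1, 0 and 0 that fell, of 4, 5 and 4 tested. In that fit 7.92% of all tested genes rose and 7.01% fell. Without the type term these lists had 1, 1 and 0 members that rose (1.59% of all genes) and none that fell (0.765%).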

Additional observations from a re-analysis of the deposited data

Results flagged for a closer look

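The fall of Zbtb18 in mutants differed between the library types. Its log2 fold change was -5.36 within the fixed-length and -1.61 within the estimated-length libraries, and the difference of 3.75 passed over all genes (adjusted p = 0.00963, edgeR quasi-likelihood test). The estimated-length libraries hold a single mutant, so that library and its type cannot be told apart here.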

How the results depend on the processing

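The calls on Cux2, Pou3f1 and Ptprk depended on the library type term. Of 841 values compared, 704 stayed the same. For an effect, that means the same direction and side of the threshold. For a number of genes or transcripts called, it means a value near that of the main fit. Of the other values, 98 were effects that lost the call, 7 gained a call and 6 reversed. The remaining 26 were numbers called that moved further from the main fit. Without the term, 400 genes were called, Cux2 was at -1.07 (adjusted p = 0.0647), Pou3f1 at -1.09 (0.326) and Ptprk at 1.02 (0.150), on the log2 scale of mutant over control. There 0 of the 6 genes rose and 1 fell, 2 of the other upper-layer genes rose and 3 fell, 0 transcripts of the 6 genes were called, Cx3cr1 reversed to -0.40 and the homeodomain-coding Cux1 models reversed to -0.17. With no filter on low counts, Cux1 (0.35, adjusted p = 0.0447) and Pou3f3 (0.68, 0.00106) passed, so that 3 of the 6 genes rose. DESeq2 called 3894 genes and passed Pou3f3 (0.65, 0.0115), so that 2 rose. The limma fit on log2(TPM + 0.5) called 1023 genes, passed Pou3f3 (0.73, 0.0336), lost Ptprk (0.77, 0.0539) and put Mef2c at -0.96 (0.0154). With RLE factors Pou3f1 passed within fixed-length libraries (-1.45, 0.0480), and with TMM from protein-coding genes Pou3f3 was lost within estimated-length ones (1.01, 0.0522). With an effective length offset Cenpf reversed to -0.017.

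Leaving out each library in turn gave 1294 to 3034 called genes. The lowest number came without control 1, and 1410, 1429 and 1557 came without control 2, control 3 and mutant 3. Log2 fold changes ran from 0.14 to 0.59 for Cux1, -1.30 to -0.87 for Cux2, -1.46 to -1.08 for Pou3f1, 0.36 to 1.02 for Pou3f3, -2.12 to -1.73 for Mef2c and 0.60 to 1.30 for Ptprk, all in one direction per gene. Of the 6 genes 0 to 2 rose and 1 to 3 fell. Of the other upper-layer genes 5 to 9 rose and 6 to 8 fell. Transcripts called numbered 0 in every such fit. Rgs5 ran from -1.44 to 0.0015 and Cux1-205 from -0.041 to 0.58. The cause of these changes was not tested. No paired analysis was possible because the labels give the groups no shared replicate numbers, and libraries are numbered in accession order. Depth limits Mef2c most, with 98.8 estimated counts of Mef2c-201 in mutant 1, and the list counts were not run with limma.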
